A study of Homo sapiens with 2 samples.

Results

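The clustered protocadherin locus on human chromosome 5 was described in HEK293T cells, a human embryonic kidney line, by in situ Hi-C, an assay that ligates and sequences pieces of chromatin found near each other in the nucleus. The locus was taken as 139.5 to 141.5 Mb of chromosome 5 in hg19, with the alpha sub-cluster at 140.16 to 140.39 Mb, beta at 140.43 to 140.63 Mb and gamma at 140.71 to 140.89 Mb, and a contact domain or loop was a member when it touched this window. A domain touched the window when it shared a base with it, and a loop when 1 of its anchors did. By this rule 7 of 3845 listed domains and 2 of 1507 listed loops belonged to the locus. The series held 2 libraries of 1 group, both of cells fixed with formaldehyde and given no other treatment, and chromatin was cut with MboI. The deposited tables combine both libraries, so replicate error cannot be given for any value, and there is no treated group to compare. No expression was measured, so the cell line could not be checked against marker genes.

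Clustered protocadherins are cell-surface adhesion proteins that neurons express in varying combinations, which gives single neurons distinct surface identities. In the alpha and gamma sub-clusters, each variable exon has its own promoter and is spliced to a set of constant exons shared by the whole sub-cluster, whereas each beta gene is complete on its own. The insulator protein CTCF and the cohesin complex are known to bind many of these promoters and distal enhancers and to bring them together by looping. In the RefSeq gene table, which is of build GRCh38.p14, the locus held 53 protein-coding genes, of which 15 were alpha, 16 beta and 22 gamma. All alpha genes shared 1 annotated gene end and all gamma genes another, while the 16 beta genes had 16 different ends. PCDHA1 and PCDHAC2 were the first and last alpha genes in that order, PCDHB1 and PCDHB15 the first and last beta genes, and PCDHGA1 and PCDHGC5 the first and last gamma genes. Because that table is of another build, single genes were not placed on the hg19 domains and loops, and positions below refer to the 3 sub-clusters.

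The promoters are shown because looping at this locus is known to act on them, and so that matches to the letters CGCT can be read. RefSeq promoter sequences, each of 250 bases before and 50 after a gene's start, were found for 47 of the 53 genes, with 52 promoters in all since some gamma genes had several starts. No entry was used for PCDHA3, PCDHA13, PCDHB6, PCDHB11, PCDHGA12 and PCDHGC5. The letters CGCT, the core of an element known to be conserved in many clustered protocadherin promoters, were marked in capitals as they read in the printed direction. A match of these letters alone does not show the element, since they lay on either strand of 70.0% of all promoters. PCDHB9 was added because it held the only match to a CTCF core spelled CCA, AG and GGC with 2 free bases (NN) between each. That match is in capitals too, and the CGCT overlaps its end. The sequences are on the plus strand of GRCh38.p14, at chr5:140785890-140786189 for PCDHA1, chr5:140966226-140966525 for PCDHAC2, chr5:141051124-141051423 for PCDHB1, chr5:141186911-141187210 for PCDHB9 and chr5:141330264-141330563 for PCDHGA1.
PCDHA1: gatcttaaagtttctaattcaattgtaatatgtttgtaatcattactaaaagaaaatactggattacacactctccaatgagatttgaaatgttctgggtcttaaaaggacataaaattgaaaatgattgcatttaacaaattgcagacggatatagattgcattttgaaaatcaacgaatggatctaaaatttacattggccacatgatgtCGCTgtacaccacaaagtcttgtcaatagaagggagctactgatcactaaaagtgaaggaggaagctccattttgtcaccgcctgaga
PCDHAC2: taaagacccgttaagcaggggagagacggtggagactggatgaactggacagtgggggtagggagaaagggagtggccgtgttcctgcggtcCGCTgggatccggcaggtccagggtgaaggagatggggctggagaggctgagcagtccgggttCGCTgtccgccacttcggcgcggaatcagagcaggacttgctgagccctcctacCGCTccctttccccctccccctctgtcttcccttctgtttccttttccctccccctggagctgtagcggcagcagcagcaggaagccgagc
PCDHB1: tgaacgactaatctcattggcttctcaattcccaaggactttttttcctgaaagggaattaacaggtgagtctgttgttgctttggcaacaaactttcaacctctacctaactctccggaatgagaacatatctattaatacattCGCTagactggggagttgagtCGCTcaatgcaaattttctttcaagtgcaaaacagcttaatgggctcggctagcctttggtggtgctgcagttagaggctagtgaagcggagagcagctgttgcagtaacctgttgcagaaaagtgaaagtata
PCDHB9: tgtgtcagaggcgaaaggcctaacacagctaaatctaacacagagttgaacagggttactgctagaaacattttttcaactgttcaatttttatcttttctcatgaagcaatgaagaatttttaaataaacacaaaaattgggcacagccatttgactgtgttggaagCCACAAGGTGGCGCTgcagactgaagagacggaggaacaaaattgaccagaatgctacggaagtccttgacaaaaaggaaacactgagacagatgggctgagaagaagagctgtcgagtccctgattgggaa
PCDHGA1: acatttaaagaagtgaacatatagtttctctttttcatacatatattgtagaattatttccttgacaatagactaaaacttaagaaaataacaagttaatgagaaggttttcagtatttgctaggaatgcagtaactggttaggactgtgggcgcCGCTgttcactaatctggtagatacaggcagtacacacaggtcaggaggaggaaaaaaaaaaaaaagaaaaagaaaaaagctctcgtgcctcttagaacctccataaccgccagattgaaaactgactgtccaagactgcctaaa

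CGCT lay on either strand of 51 of the 52 protocadherin promoters (98.1%), against 70.0% of all 35116 promoters in the table. The exception was PCDHA9. The difference was in direction as well as in number. Within the 100 bases before the start, CGCT read in the printed direction in 44 of 52 promoters (84.6%), against 28.1% of all promoters. Its reverse complement AGCG stood in that stretch in 14 of 52 (26.9%), against 28.4% of all promoters. The choice of this stretch and of 1 direction was made after the positions had been seen. By sub-cluster, the printed direction held in 12 of 13 alpha, 13 of 14 beta and 19 of 25 gamma promoters, and the 19 gamma promoters were of 19 of the 20 gamma genes with an entry. The reverse complement was found in none of the 13 alpha promoters, in 1 of 14 beta promoters and in 13 of 25 gamma promoters (52.0%). In gamma, both directions were thus more frequent than in all promoters. Positions were taken only from matches in the printed direction within the 100 bases before the start. Their median was 47.5 bases before the start in alpha, 60.5 in beta and 50 in gamma. Matches further out, as in PCDHAC2 and PCDHB1, were left out. Matches spread evenly over this stretch would also have a median near its middle, so these medians do not show a preferred position. In PCDHA1 the match began 38 bases before the start, in PCDHGA1 it began 95 bases before it, and in PCDHB1 the nearer of its 2 matches began 84 bases before it. The CTCF core, searched on both strands, was found in 1 of 52 protocadherin promoters (1.92%) and in 2.41% of all promoters. Only this exact spelling of the core was searched, so a promoter without a match was not shown to lack a CTCF site. These promoters belong to genes of common descent and are not independent of each other, and a match of letters is not a measured binding site.

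The 3 sub-clusters were divided between 2 contact domains, which are stretches with more contacts inside than across their ends, and they differed in how they met the domain ends. The first domain (140235001 to 140435000, 200 kb) began inside alpha and ended just inside beta. The second (140555001 to 140945000, 390 kb) began inside beta, held all of gamma and ended past it. Beta was therefore the sub-cluster in which the first domain ended and the second began. It held 2 domain ends, alpha held 1 and gamma held none. These counts describe positions only, since the median 2 Mb window of the genome was touched by 3 domains. A far shorter sub-cluster without a domain end is therefore not unusual. The share of stretches of this length with as many ends was not computed. The end of the first domain lay 5 kb inside beta, which is 1 bin of the domain table, so its place in beta rather than in the 40 kb between alpha and beta is at the limit of the resolution.

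Alpha, which spans 230 kb, was covered by the first domain over 155 kb (67.4%). Its first 75 kb lay outside any listed domain. Of the domain itself, 77.5% was alpha sequence and 2.50% was beta sequence, the rest being the stretch between the sub-clusters. Beta, which spans 200 kb, was covered over 80 kb (40%), made up of 5 kb in the first domain and 75 kb in the second. The 120 kb of beta between these parts was the gap between the 2 domains. Gamma, which spans 180 kb, was covered over its whole length and made up 46.2% of the second domain. A further 19.2% of that domain was beta sequence. That domain ended 55 kb past the end of gamma, and the 425 kb that followed it held no listed domain.

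**Figure D1:**
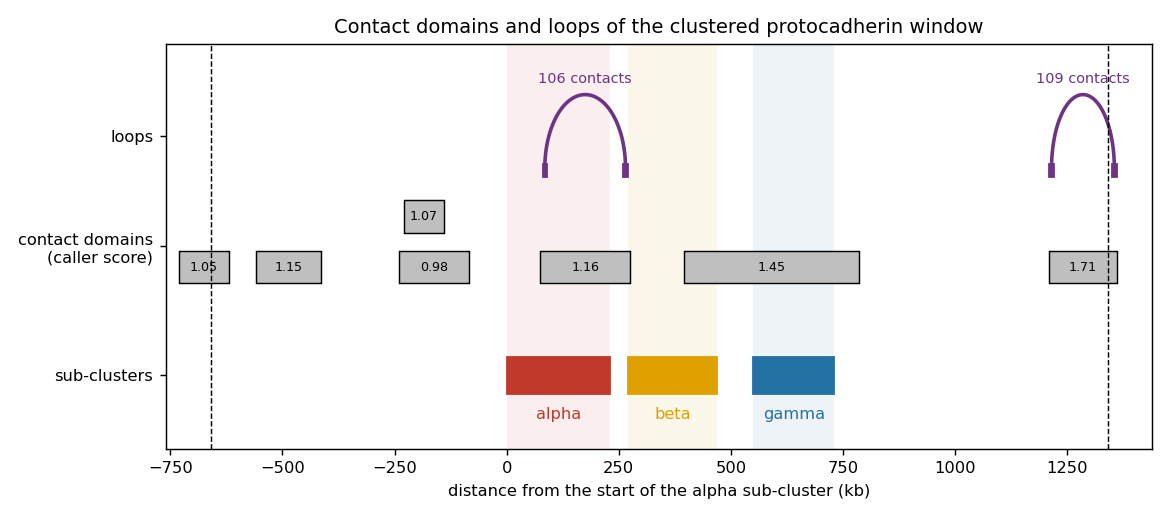
Map of the 2 Mb protocadherin window in HEK293T cells, with distance from the start of the alpha sub-cluster in kb on the x axis. Coloured bars are the sub-clusters, grey boxes the 7 contact domains with their caller scores, purple arcs the 2 loops with their observed contacts, and dashed lines the ends of the window. The domain with score 1.16 starts in alpha and ends at the edge of beta, and the domain with score 1.45 runs from beta past gamma.

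The other 5 domains of the window lay outside the sub-clusters, 4 before alpha and 1 after gamma. Before alpha, the domain at 139430001 to 139540000 crossed the start of the window, and the one at 139600001 to 139745000 followed it. The domain at 139920001 to 140075000 held a smaller one of 90 kb at 139930001 to 140020000, and the larger ended 85 kb before alpha. After gamma, the domain at 141370001 to 141520000 crossed the end of the window. The next domain outside the window began 30 kb past its end (141530001 to 141960000, score 1.08), and the last one before the window ended 355 kb from its start (139015001 to 139145000, score 1.21).

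The domains of the locus were mostly short and of middling or low caller score. Their lengths were 90, 110, 145, 150, 155, 200 and 390 kb, with a median of 150 kb, against 275 kb for the 223 domains of chromosome 5 and 235 kb for all domains. The domain that held gamma was the only 1 of the 7 that was longer than the median of all domains. The caller's score, whose meaning no header or label explains, was 1.05, 1.15, 0.98, 1.07, 1.16, 1.45 and 1.71 in the order of position; the 1.07 is that of the nested 90 kb domain. The median was 1.15, against 1.20 for all domains (quartiles 1.03 and 1.39). Above the median of all domains were 2 of the 7 members, the domain with gamma and the one after it.

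Set against all domains of 0.8 to 1.25 times their own length, the domains ranked differently. The score of the alpha domain (1.16) was above that of 29.3% of 863 such domains. That of the beta and gamma domain (1.45) was above 76.6% of 770. That of the 150 kb domain after gamma (1.71) was above 98.0% of 910, and above 96.5% of all domains. The lowest for its length was the 155 kb domain before alpha (0.98), which scored above 9.16% of 873. With 1 map there is no error for a score, so these ranks describe where each domain lies and do not test a difference between them.

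**Figure D2:**
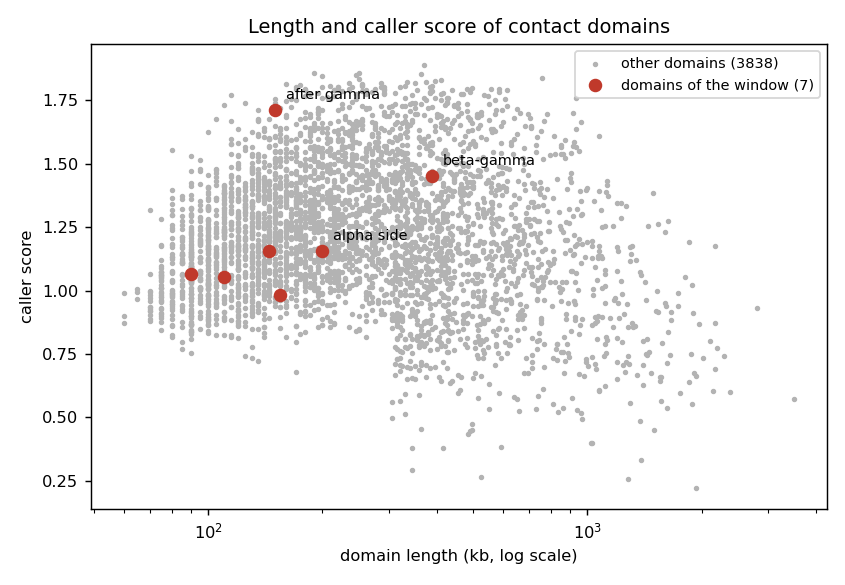
Length in kb (log scale) and caller score of each contact domain, with the 7 domains of the protocadherin window in red and the 3838 others in grey. The domain after gamma (1.71) and the domain with gamma (1.45) lie in the upper part, and the other 5 lie between 0.98 and 1.16.

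The only loop with an anchor in a protocadherin sub-cluster was an alpha loop. A loop is a focal excess of contacts at 1 pair of positions, its anchors. This one joined 140240001 to 140250000, which is 80 to 90 kb into alpha, with 140420001 to 140430000, which lies in the 40 kb between alpha and beta and ends where beta begins. The second anchor thus lay past the end of alpha. No loop had an anchor in beta or in gamma. The median 2 Mb window of the genome was touched by 1 loop, so a sub-cluster without an anchor is not unusual. The pixel of the alpha loop, at 10 kb bins, held 106 observed contacts, with an exact 95% Poisson interval of 86.8 to 128, against 45.8 expected from the donut around it. The enrichment was 2.31-fold (1.89 to 2.80, with the expectation held fixed). These intervals cover counting error only.

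The other loop joined 141370001 to 141380000 and 141510001 to 141520000, after gamma and across the end of the window. It held 109 contacts against 44.7 expected, an enrichment of 2.44-fold (2.00 to 2.94). The ratio of the 2 enrichments, the loop after gamma over the alpha loop, was 1.05, and its exact 95% binomial interval of 0.799 to 1.39 includes 1. The 2 loops could therefore not be told apart in enrichment at this depth, though the interval does not show that they are equal.

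Loops were listed by their excess over 4 local neighbourhoods, so an excess over each was fixed by the listing. The values below therefore give its size and are not separate evidence for a loop. For the alpha loop the enrichment was 2.38-fold over the lower left (1.95 to 2.88) and 2.19-fold over the horizontal (1.79 to 2.65). The vertical gave 1.90-fold (1.56 to 2.30), the lowest of the 4. The highest of the alpha loop's 4 FDR values in the authors' deposited table was 0.000701. These FDR values also belong to the listing. For the loop after gamma the vertical neighbourhood also gave the lowest enrichment, 1.94-fold (1.60 to 2.34), and the highest FDR in the authors' deposited table was 0.000189. The authors merged 4 pixels into the alpha loop and 2 into the loop after gamma, per the file headers. No other listed loop used any of the 4 anchors.

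Among loops of like distance neither member stood out. The anchors of the alpha loop lay 180 kb apart. The 335 other loops with 10 kb anchors 130 to 230 kb apart had a median of 94 contacts and an enrichment of 2.47-fold (quartiles 2.28 and 2.71). The alpha loop had more contacts than 67.5% of them and a higher enrichment than 28.4%, with a donut expectation above that of 75.2%. The anchors of the loop after gamma lay 140 kb apart. Against 367 loops of 90 to 190 kb, with a median of 98 contacts and 2.41-fold, it had more contacts than 66.2% and a higher enrichment than 53.7%. The nearest loops on either side of the window had anchors at 139020001 and 139140001 (57 contacts, 2.94-fold, 2.23 to 3.81) and at 142100001 and 142250001 (117 contacts, 2.32-fold, 1.92 to 2.78).

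**Figure D3:**
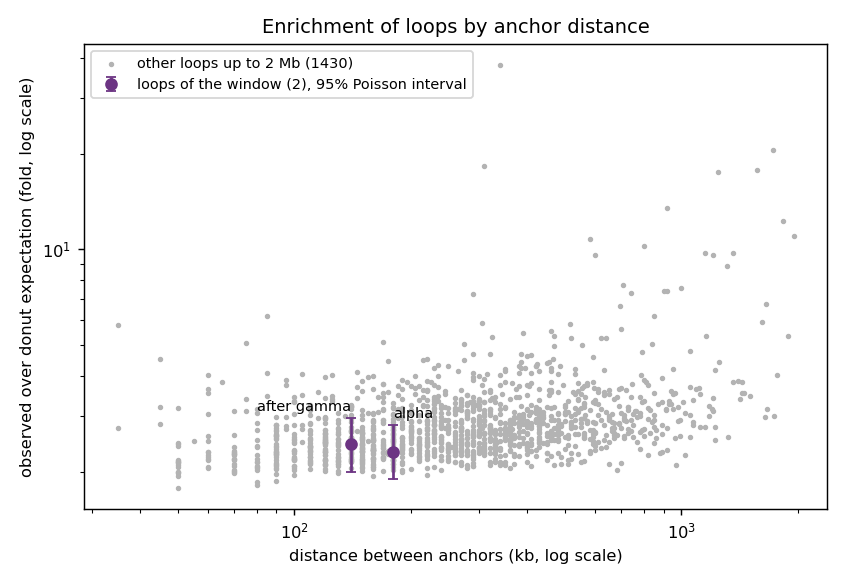
Enrichment over the donut expectation (fold, log scale) against the distance between anchors (kb, log scale) for loops up to 2 Mb, with the 2 loops of the protocadherin window in purple and their exact 95% Poisson intervals. The alpha loop (2.31-fold) and the loop after gamma (2.44-fold) lie within the cloud of the other loops at their distances, and their intervals overlap.

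Both loops joined the ends of a domain. Corner loops were defined as those whose anchor centres came within 50 kb, or 0.2 of the domain's length if that was more, of both ends of a domain, and 63.6% of all loops met this rule. The anchors of the alpha loop lay 10 kb inside each end of the alpha domain, and those of the loop after gamma lay 5 kb inside each end of the domain there. The 2 members also met it with tolerances of 25 kb and 10 kb, the alpha loop exactly at the limit of 10 kb. The share of all loops that meet these stricter tolerances is not given here, so no weight is put on this. With 2 loops, a share cannot be told apart from 63.6%. Seen from the domains, 2 of the 7 had a loop at their corner, against 24.8% of all domains. The domain with gamma had none, and its score was the higher of the 2 domains that hold protocadherin sequence. A relation between score and corner loops was not tested. Among the 770 other domains of like length 27.0% had a corner loop, so a domain without one is the more common case. The domain and the loop tables were made from the same contacts and are not independent readings.

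The window held more domains than most windows of its size, and its loop count was nearer the middle. Among 1424 windows of 2 Mb laid along the genome, with scored compartment bins throughout, the median window was touched by 3 domains (quartiles 1 and 5) and 1 loop (quartiles 0 and 2). The 7 domains of the protocadherin window exceeded the number in 91.2% of windows, and 8.78% of windows had at least as many. The 2 loops exceeded the number in 66.9% of windows, and 33.1% had at least as many. Domains covered 1060 kb of the window (53.0%), against 44.8% of the scored length of chromosome 5 and 41.7% of that of all chromosomes. The coverage was higher than in 61.0% of windows. Of the 5 gaps between domains that touched the window, the one through beta (120 kb) was longer than 54.2% of the 3499 gaps of the genome, whose median was 95 kb, and the one after gamma (425 kb) was longer than 76.6%.

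**Figure D4:**
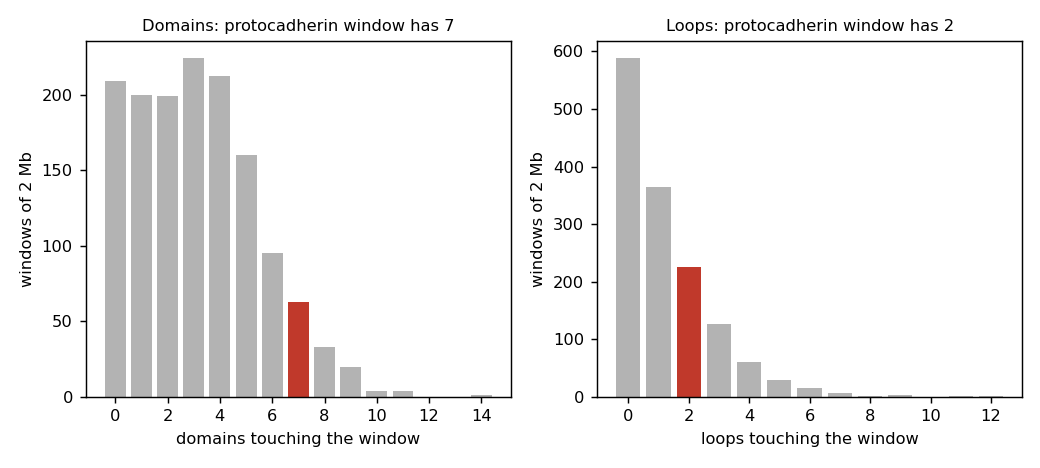
Number of 2 Mb windows of the genome (y axis) by the number of contact domains (left) and loops (right) that touched them, with the count of the protocadherin window in red. The window had 7 domains, where the median was 3, and 2 loops, where the median was 1.

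The compartment table gave the 3 bins of 1 Mb that the window touches scores of 0.0109, 0.0117 and 0.00896. They are not read as A or B here, because 2 bins of chromosome 5 carried 86.9% of its squared score and the 3 bins of the window carried 0.0336%.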

How the data were processed

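The 2 libraries of HEK293T in situ Hi-C were described by 3 tables that combine both. The submitters' processing notes name hg19 as the build and, with no roles, Picard, BWA 0.7.8 and FastQC 0.11.7. The sources used here do not give the way the libraries were combined, the domain caller or the compartment method. Per the file headers, the authors' loop table holds the observed count of contacts per pixel, 4 expectations and 4 FDR columns (q-values), made with HiCCUPS at 5 and 10 kb per its name. The domain and compartment scores were used as deposited by the authors. Library depth is unknown, so the contacts per loop pixel (13 to 349, median 74) are the only measure of depth.

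Members were every domain and loop touching the window. The members, lists and rules were chosen with earlier results of these data known. Positions count from 1 in hg19. Counts, medians, ranks and exact Poisson intervals were computed with Python 3.11.15, numpy 2.4.6, pandas 2.3.3 and scipy 1.17.1, and the geometric rules were tested on simulated data. No test across samples was possible with 1 combined map. Promoters came from RefSeq (GRCh38.p14), and those printed were of the genes named as members plus the one with a CTCF core match. Alternatives changed the window, the overlap rule, the FDR, the tolerance and the score threshold. A comparison of protein sequences was planned, but protein sequences were not analysed here.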

Additional observations from a re-analysis of the deposited data

How the results depend on the processing

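Neither library could be left out, because the tables combine them. No paired analysis was possible because the series has 1 group and its tables have no column for either library. Of the 31 alternative values, 21 stayed the same by the criteria used (a count within 1.5 times, or a value within its counting interval). Several of these could not have changed, so the tally does not measure robustness. Both loops had FDR values below the stricter limit of 0.01 and had 10 kb anchors, and stricter filters could not lower the counts of 0 in gamma. Widening the window by 1 Mb on each side gave 12 domains. Keeping only domains with a caller score above the median of all gave 2 domains with a median length of 270 kb covering 26.0% of the window, and left 0 domain ends in alpha and 1 in beta, since the alpha domain scores below that median. Keeping only domains wholly inside gave a median length of 155 kb against 150 kb. This was labelled as changed, although the criteria above give no rule for a length. Asking for both anchors inside left 1 loop, the alpha loop. Widening the sub-clusters by 25 kb put 1 loop anchor in beta, that of the alpha loop beside it. Shifting the windows of the genome by 1 Mb lowered the share with fewer loops to 64.0%. The contacts per loop pixel limit the precision of each enrichment, and regions without a listed domain or loop are ones where no feature passed the authors' threshold.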

Other observations

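A listed loop spanned the window with neither anchor in it, and it was not counted as a member. It joined 108120001 to 108130000 and 180660001 to 180670000 of chromosome 5, which are 72.5 Mb apart, with 13 observed contacts (exact 95% Poisson interval 6.92 to 22.2) against 0.00855 expected from the donut. No loop in the genome had fewer contacts. The spanning loop was called from 1 pixel, and no other loop with 10 kb anchors had a distance within 50 kb of its own. Its anchors lay 155 and 2650 kb from the nearest domain end. Whether it reflects a chromatin loop was not tested.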
